A study of Mus musculus with 72 samples.

Results

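Liver sinusoidal endothelial cells line the capillaries of the liver, and 32 genes grouped under their name were followed here across strain, sex and dietary isoleucine. Some members, among them Pecam1, Cdh5, Plvap, Emcn and Cd34, are also genes of other endothelium. The genes were chosen by name, with earlier results of these data known. They cover scavenger and clearance receptors, vascular endothelial growth factor (VEGF) receptors, Tie receptors, junction and surface proteins, G protein-coupled receptors, and secreted factors that signal to hepatocytes. All 32 were found among the 50307 genes of the deposited count table, and all 32 passed the filter on low counts that left 14954 genes for testing. Livers came from B6 mice (C57BL/6J in the design text, spelled C56BL/6J in the strain field) and DBA/2J mice (DBA), females and males of each. They ate a Western diet for 12 weeks in a version with control, low or high isoleucine, and were fasted for 16 h before sampling. Each combination of strain, sex and diet had 6 libraries, which gave 12 groups and 72 libraries. Every group ate a Western diet, so that each comparison sets one isoleucine content against another on that background; no group on another base diet was analysed here. The sources differ on the age at which feeding began, 6 weeks in the design text and 18 weeks in the treatment text; the age field also reads 18 weeks. Whether each library is a separate mouse is not in the labels, so p-values are based on library-to-library variation, which may be technical in part.

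These cells differ from other endothelium in having open pores (fenestrae) and no continuous basement membrane, and they remove waste from the blood through scavenger receptors. VEGF and angiopoietin signals from neighbouring cells maintain them. They in turn release Wnt and bone morphogenetic protein (BMP) signals, by which those around the central vein set the zonation of hepatocytes and others direct hepatocytes to make hepcidin, the hormone of iron balance. Whole liver is mostly hepatocyte RNA; fewer endothelial cells and less RNA per endothelial cell cannot be told apart in such samples.

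Library totals ran from 12959000 to 51125400 expected counts. Levels are given in CPM, the customary unit of counts scaled to the size of the library, here after TMM scaling (trimmed mean of M-values). The 8 defining markers (Stab2, Clec4g, Oit3, Gpr182, Dnase1l3, Kdr, Lyve1 and Fcgr2b) were at 0 in 0 of the 72 libraries. Their medians over all libraries lay between 4.19 CPM for Lyve1 and 56.2 CPM for Stab2, and the lowest single value was 0.332 CPM, for Lyve1. Divided by exon length, the highest mean levels were those of Plvap, which builds the diaphragms of capillary pores (17.1 CPM per kb), of the lectin receptor Clec4g (16.6 CPM per kb) and of the BMP co-receptor endoglin, Eng (10.3 CPM per kb). Cd34 (0.232 CPM per kb) and Wnt9b (0.196 CPM per kb) were the lowest on the same scale. From which vessels of the liver the RNA of Plvap or Cd34 came cannot be told in whole tissue. Ramp2 shares 1103 exonic bases with Vps25, and Egfl7 264 with Gm20532, on the same strand, so that counting could move reads between the genes of each pair and both values are uncertain.

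The promoters of 4 genes that rose with low isoleucine are shown because the results below turn on them: Adgrf5, Flt1, Kdr and Adgrl4 had the lowest adjusted p-values for low isoleucine among members with a promoter entry that lies before the annotated gene (for Kdr the last 3 bases lie within it). Each is the 250 bases before the start site in RefSeq on GRCm38.p6, written 5′ to 3′ on the strand of the gene. Adgrf5 is at chr17:43360181-43360430 (plus strand), Flt1 at chr5:147726012-147726261 (minus), Kdr at chr5:75978456-75978705 (minus) and Adgrl4 at chr3:151437632-151437881 (plus). Capitals mark AGGAAG or CGGAAG on either strand, the core that ETS factors, a family with endothelial members, are known to bind.
Adgrf5: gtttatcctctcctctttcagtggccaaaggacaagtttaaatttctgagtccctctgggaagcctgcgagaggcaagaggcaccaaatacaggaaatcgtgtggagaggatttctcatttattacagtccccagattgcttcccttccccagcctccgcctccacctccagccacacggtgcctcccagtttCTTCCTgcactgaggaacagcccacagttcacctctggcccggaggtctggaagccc
Flt1: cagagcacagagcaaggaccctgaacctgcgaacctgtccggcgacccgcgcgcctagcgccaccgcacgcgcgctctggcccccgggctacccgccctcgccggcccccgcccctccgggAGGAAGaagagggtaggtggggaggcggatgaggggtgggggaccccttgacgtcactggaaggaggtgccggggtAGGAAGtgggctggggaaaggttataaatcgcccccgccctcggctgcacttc
Kdr: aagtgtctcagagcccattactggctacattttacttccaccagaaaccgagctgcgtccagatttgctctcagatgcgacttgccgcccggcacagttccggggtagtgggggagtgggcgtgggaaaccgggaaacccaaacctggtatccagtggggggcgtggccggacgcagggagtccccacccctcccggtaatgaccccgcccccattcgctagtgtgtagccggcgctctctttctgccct
Adgrl4: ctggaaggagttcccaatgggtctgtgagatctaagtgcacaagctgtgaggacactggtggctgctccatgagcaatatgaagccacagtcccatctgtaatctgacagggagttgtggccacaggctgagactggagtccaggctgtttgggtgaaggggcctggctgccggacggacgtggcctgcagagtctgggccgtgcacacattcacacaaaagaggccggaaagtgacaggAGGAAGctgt
Flt1 holds 2 such matches, Adgrf5 and Adgrl4 1 each, and Kdr 0 in this window. A promoter was found for 22 of the 32 members, and 13 of them (59.1%) hold a match, against 39% of 27025 mouse promoters of the same length. Among members past the threshold with low isoleucine the share was 7 of 13 (53.8%), and among the other members 6 of 9 (66.7%). The GATA core AGATAA was found in 0 of the 22 windows and in 10.3% of all promoters. A match describes letters in a window and shows neither binding nor its absence.

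With low isoleucine 17 of the 32 genes rose as the mean of the 4 strain-sex classes and 0 fell, whereas 17.8% of all genes tested passed the threshold upward and 20% downward (edgeR's quasi-likelihood test, Benjamini-Hochberg adjusted p under 0.05). Because earlier results of these data were known when the members were chosen, this contrast is not an independent test of the set. The genes that rose include the VEGF receptors Kdr, Flt1 and Flt4, the Tie2 receptor Tek with its phosphatase Ptprb, and the clearance receptors Stab1, Stab2, Mrc1 and Fcgr2b. They also include the surface receptors Adgrf5 and Adgrl4, the junction protein Pecam1, the endocytic ATPase Ehd3, Oit3, Egfl7, and the hepatocyte-directed signals Rspo3 and Wnt9b. All 32 fold changes were above 0, from 0.03 to 0.68 on the log2 scale with a median of 0.24 against -0.00 over all genes; Nrp1, Plvap and Clec4g fell under 0 when libraries were scaled by their totals alone, and Plvap and Clec4g with quality weights. In the classes, 18 members had a positive fold change in all 4. Fold changes of the 17 genes that rose ran from 1.15-fold (Flt4) to 1.60-fold (Adgrf5).

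**Figure D1:**
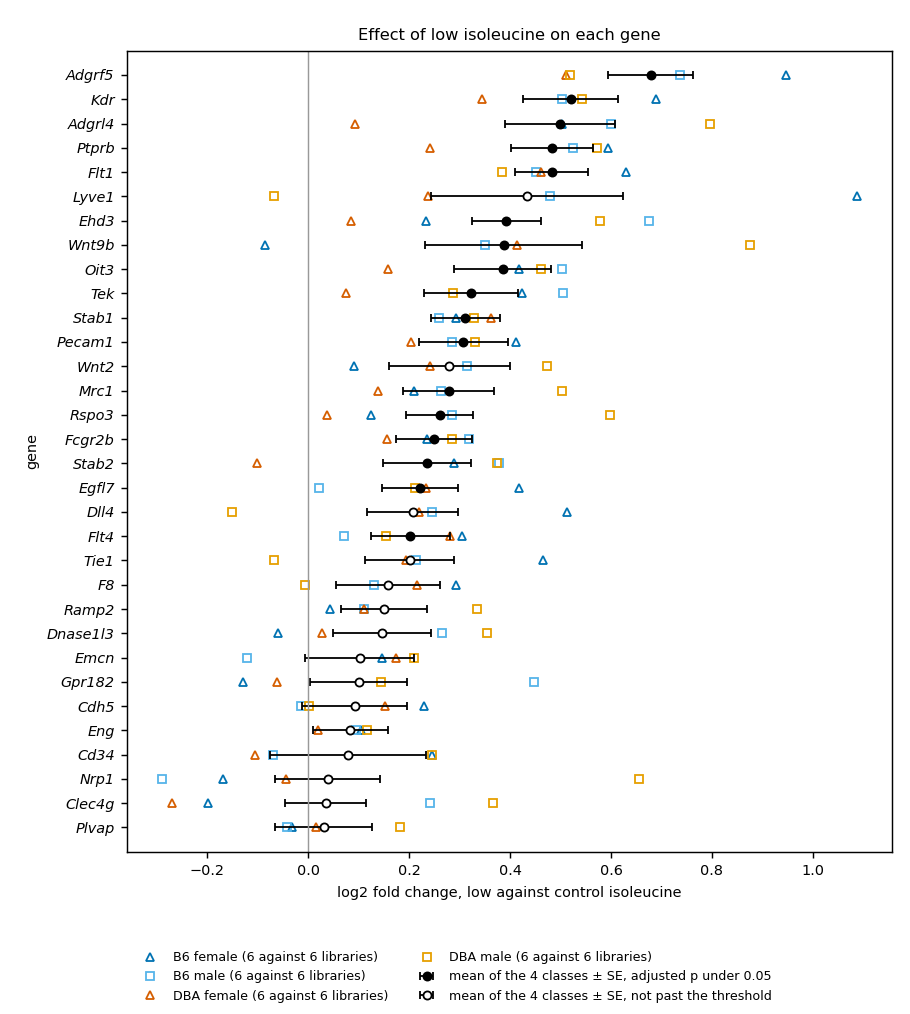
Log2 fold change of each of the 32 genes between low and control isoleucine. Circles are the mean of the 4 classes with its standard error, filled where the adjusted p is under 0.05, and triangles and squares are the single classes (6 against 6 libraries); all 32 circles lie right of 0 and 17 are filled.

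The G protein-coupled receptors held the member with the largest rise. Adgrf5 (GPR116), an adhesion receptor of endothelium, ran from 19.0 to 34.2 CPM (median 23.6) in the control libraries of B6 females and from 34.5 to 64.5 CPM (median 46.4) in those on low isoleucine. The corresponding medians were 22.6 and 35.2 CPM in B6 males, 24.1 and 35.6 CPM in DBA females, and 15.4 and 22.5 CPM in DBA males. In B6 mice of either sex every low-isoleucine library lay above every control library, and in DBA mice the ranges overlapped. Over the 4 classes Adgrf5 rose by 0.68 ± 0.08 (log2 fold change ± SE, adjusted p = 1.76e-09), and 23 of 24 low-isoleucine libraries lay above their control mean. Adgrf5 was the member that passed in 4 of the 4 classes, with class fold changes from 0.51 to 0.95. In DBA females and DBA males this was lost with a block on the number that pairs of libraries of a group share in their titles (adjusted p = 0.0944 and 0.097), and in DBA females also with scaling by library totals alone. With the 2 libraries of each title number summed it held in B6 females alone (adjusted p = 0.00511). Adgrl4 (ELTD1), a second adhesion receptor of blood vessels, rose by 0.50 ± 0.11 (adjusted p = 0.000188). Its control and low medians were 5.77 and 7.24 CPM in B6 females, 5.46 and 8.23 CPM in B6 males, 6.82 and 7.66 CPM in DBA females, and 4.27 and 8.26 CPM in DBA males. The 2 DBA classes stand at the ends: the class fold change was 0.09 in DBA females and 0.80 in DBA males. Gpr182 (0.10 ± 0.10, adjusted p = 0.44), a receptor that takes up chemokines, and Ramp2 (0.15 ± 0.09, adjusted p = 0.162), the partner by which endothelium senses adrenomedullin, did not pass.

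Of the VEGF receptors, 3 of 4 rose. Flt1 (VEGFR1), which binds VEGF tightly and limits how much reaches Kdr, rose by 0.48 ± 0.07 (adjusted p = 1.72e-07). Control libraries ran from 6.25 to 8.72 CPM in B6 females (median 6.56), 5.56 to 7.77 CPM in B6 males (median 7.11), 5.53 to 8.82 CPM in DBA females (median 7.83) and 4.56 to 7.75 CPM in DBA males (median 5.95). The low-isoleucine medians were 11.2, 9.44, 9.86 and 7.17 CPM in the same order. The ranges of the 2 diets overlapped in each class, yet 24 of 24 low-isoleucine libraries lay above the mean of their control group. Kdr (VEGFR2), the main signalling receptor of VEGF-A, rose by 0.52 ± 0.09 (adjusted p = 9.09e-06). Its medians went from 23.7 CPM on control to 40.1 CPM on low isoleucine in B6 females, from 25.0 to 36.2 CPM in B6 males, from 31 to 40.0 CPM in DBA females and from 20.9 to 29.9 CPM in DBA males. DBA male libraries on low isoleucine were close together for Kdr, between 28.1 and 33.7 CPM, while B6 female libraries spread from 23.8 to 51.9 CPM and overlapped their controls (18.2 to 32.6 CPM). Flt4 (VEGFR3), a receptor of VEGF-C, rose less (0.20 ± 0.08, adjusted p = 0.0351). Nrp1, a co-receptor for VEGF, stood at 0.04 ± 0.10 (adjusted p = 0.814) as the mean of classes that went opposite ways, from -0.29 in B6 males to 0.66 in DBA males.

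Ptprb (VE-PTP), the phosphatase that holds Tie2 signalling down, rose by 0.48 ± 0.08 (adjusted p = 2.86e-06). In B6 males its control libraries ran from 30.4 to 40.3 CPM (median 34.9) and its low-isoleucine libraries from 43.2 to 61.6 CPM (median 47.9), without overlap. Control and low medians were 35.6 and 49.0 CPM in B6 females, 41.8 and 50.8 CPM in DBA females, and 27.1 and 39.6 CPM in DBA males, with overlapping ranges in each. Tek (Tie2), the angiopoietin receptor, rose by 0.32 ± 0.09 (adjusted p = 0.00411), and its relative Tie1 stood at 0.20 ± 0.09 (adjusted p = 0.0626). Ehd3, an ATPase of endosomal recycling, rose by 0.39 ± 0.07 (adjusted p = 4.19e-06). Ehd3 passed in both male classes and in neither female class. Its control libraries ran from 33.1 to 49.1 CPM (median 41.7) in B6 males and from 25.0 to 38.4 CPM (median 30.2) in DBA males. On low isoleucine its male libraries ran from 55.2 to 93.9 CPM (median 63.2) and from 43.3 to 52.8 CPM (median 45.5), above every control library of the same class. In females the medians were 60.8 and 66.7 CPM (B6) and 46.0 and 50.8 CPM (DBA), with wide overlap.

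**Figure D2:**
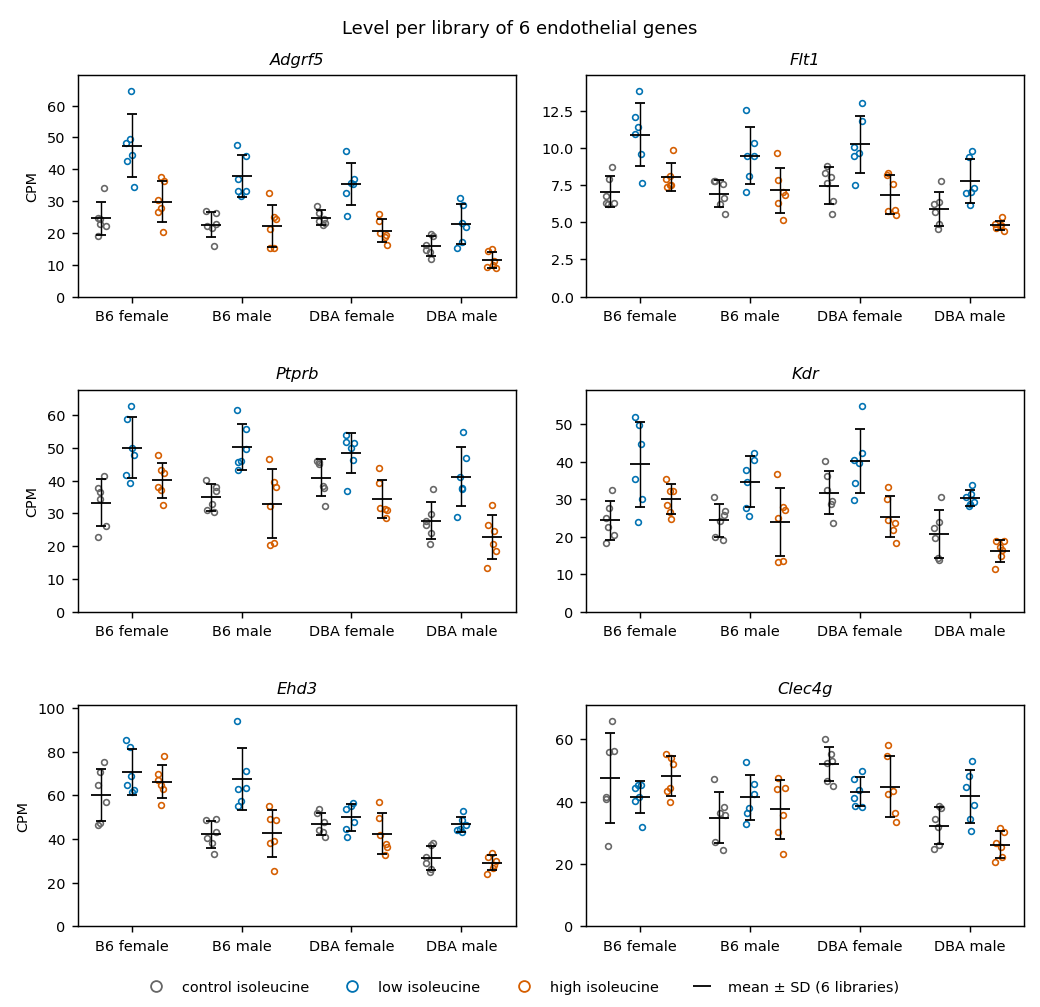
Level in CPM (vertical axis, from 0) of Adgrf5, Flt1, Ptprb, Kdr, Ehd3 and Clec4g in each library of the 4 strain-sex classes (horizontal axis). Circles are libraries coloured by isoleucine content and bars are the mean ± SD of 6 libraries; Adgrf5 on low isoleucine lies above all controls in both B6 classes, and Clec4g medians on low isoleucine lie under control in both female classes and above it in both male classes.

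Scavenger and clearance receptors were raised in 4 of 6 cases, by smaller amounts. Stab1, a scavenger receptor of endothelium and some macrophages, rose by 0.31 ± 0.07 (adjusted p = 0.000192), with class values between 0.26 and 0.36. Its medians were 46.6 CPM on control and 58.4 CPM on low isoleucine in B6 females, 34.2 and 41.7 CPM in B6 males, 39.4 and 51.3 CPM in DBA females, and 32.5 and 41.9 CPM in DBA males. Mrc1, the mannose receptor (0.28 ± 0.09, adjusted p = 0.011), Fcgr2b, which clears immune complexes (0.25 ± 0.08, adjusted p = 0.00659), and Stab2, the hyaluronan scavenger (0.23 ± 0.09, adjusted p = 0.0283), rose as well. Stab2 did not share the direction of the other 3 classes in DBA females, where the medians were 93.0 CPM on control and 86.5 CPM on low isoleucine. Clec4g, a lectin typical of these cells, did not pass (0.03 ± 0.08, adjusted p = 0.778); its range in B6 females was 25.7 to 65.9 CPM on control and 32 to 45.4 CPM on low isoleucine. Lyve1, a hyaluronan receptor, had a fold change of 0.43 ± 0.19 that did not pass (adjusted p = 0.0645), and that passed without library 4 of the B6 female controls (adjusted p = 0.048). Its medians on control and low isoleucine were 8.22 and 17.5 CPM in B6 females, where it rose by 1.09 ± 0.35 (adjusted p = 0.0213), and 1.45 and 1.59 CPM in DBA males.

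Among secreted proteins, Oit3 rose by 0.38 ± 0.10 (adjusted p = 0.00109), from medians of 16.5 to 23.5 CPM in B6 females, 12.6 to 17.3 CPM in B6 males and 9.47 to 13.7 CPM in DBA males. In DBA females the Oit3 medians were 15.8 and 15.4 CPM. The nuclease Dnase1l3 (0.15 ± 0.10, adjusted p = 0.24) and coagulation factor VIII, F8 (0.16 ± 0.10, adjusted p = 0.231), did not pass. Of the junction proteins and the BMP co-receptor, Pecam1 (CD31) rose by 0.31 ± 0.09 (adjusted p = 0.00401), while VE-cadherin, Cdh5 (0.09 ± 0.10), and Eng (0.08 ± 0.08) did not pass. The secreted Egfl7 rose by 0.22 ± 0.07 (adjusted p = 0.0152), and the Notch ligand Dll4 did not pass (0.21 ± 0.09, adjusted p = 0.0648). The 3 capillary surface proteins, Emcn (0.10 ± 0.11), Plvap (0.03 ± 0.10) and Cd34 (0.08 ± 0.15), did not pass.

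Signals from endothelium to hepatocytes were measured with Wnt2, Wnt9b and Rspo3, which come from the endothelium around the central vein. Rspo3, which prolongs Wnt signalling by sparing its receptors, rose by 0.26 ± 0.07 (adjusted p = 0.00121). By class it passed in DBA males, in which all 6 low-isoleucine libraries (6.34 to 8.35 CPM, median 7.59) lay above the controls (3.36 to 6.17 CPM, median 5.15). The other classes had Rspo3 medians of 5.35 and 5.89 CPM (B6 females), 4.78 and 5.92 CPM (B6 males) and 5.49 and 5.61 CPM (DBA females). Wnt9b rose by 0.39 ± 0.16 (adjusted p = 0.042), a call that was lost without library 4 of the B6 female controls (adjusted p = 0.0602). It was the member with the lowest level, with medians of 1.0 and 0.900 CPM in B6 females, 0.853 and 0.932 CPM in B6 males, 0.874 and 1.01 CPM in DBA females, and 0.678 and 1.29 CPM in DBA males. Wnt2 did not pass (0.28 ± 0.12, adjusted p = 0.0591); its medians were 2.67 and 2.68 CPM in B6 females, 1.65 and 2.64 CPM in B6 males, 2.60 and 2.99 CPM in DBA females, and 1.84 and 2.58 CPM in DBA males.

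Both endothelial BMP ligands rose. Bmp2 rose by 0.57 ± 0.08 (adjusted p = 2.03e-08) and Bmp6 by 0.47 ± 0.09 (adjusted p = 1.96e-05). Bmp6 medians on control and low isoleucine were 3.82 and 6.39 CPM in B6 females, 3.33 and 4.35 CPM in B6 males, 3.11 and 4.10 CPM in DBA females, and 2.60 and 2.90 CPM in DBA males. Of 4 hepatocyte targets of BMP signalling 3 rose: Id1 by 0.91 ± 0.20, hepcidin (Hamp) by 0.93 ± 0.29 and the inhibitory Smad7 by 0.35 ± 0.13, with Smad6 at -0.01 ± 0.13. The median over the 4 targets was 0.63 against -0.00 over all genes. Within single classes, 1 of the 4 targets rose in B6 females (9.53% of all genes passed upward) and 1 in DBA males (7.48%). In B6 males (1.74%) and DBA females (5.11%) 0 passed. Smad7 medians were 5.57 CPM on control and 5.48 CPM on low isoleucine in DBA females, and rose in each other class. The cells of origin of this RNA cannot be told in whole tissue. An effect of the BMP ligands on the targets was not tested. Of 15 hepatocyte targets of Wnt signalling, 1 rose and 1 fell: Axin2, a feedback inhibitor, rose by 0.49 ± 0.09 (adjusted p = 2.43e-05), and Lect2 fell by 0.39 on the log2 scale (SE 0.08, adjusted p = 5.91e-05). The median over the 15 Wnt targets was -0.14, and the shares of all genes were 17.8% upward and 20% downward. Among 7 genes of central-side endothelium, which include the 3 signals above (median 0.39), 5 rose (Kit, Thbd, Cdh13, Rspo3 and Wnt9b). Among 6 of portal-side endothelium, of which Dll4 is also a member, Efnb2 rose and Msr1 fell (median 0.13). By class 2 of these 6 rose and 1 fell in B6 females, where 9.53% of all genes passed upward and 11.3% downward, and 0 passed in each other class. The 2 sides were not tested against each other, and from which cells the RNA of Msr1 came cannot be told in whole tissue.

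**Figure D3:**
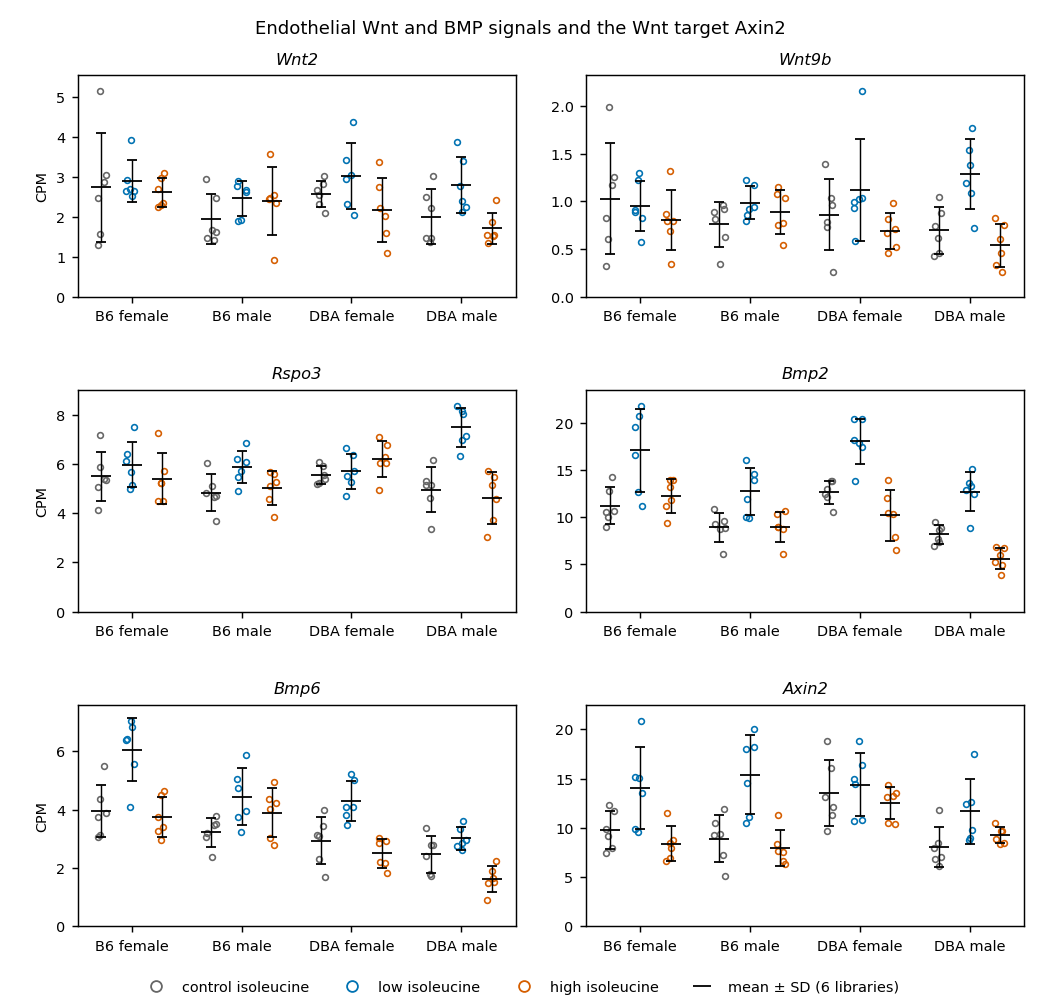
Level in CPM (vertical axis, from 0) of Wnt2, Wnt9b, Rspo3, Bmp2, Bmp6 and the Wnt target Axin2 in each library of the 4 strain-sex classes (horizontal axis), coloured by isoleucine content. Bars are the mean ± SD of 6 libraries; for Rspo3 the 6 low-isoleucine libraries of DBA males lie above their controls, and Wnt9b stays near 1 CPM with wide overlap.

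Other endothelial lists gave mixed counts, beside 17.8% of all genes tested that passed upward and 20% downward. The counts for ligands and partners below are near that share. Of 9 genes of large-vessel or activated endothelium (median 0.35) 5 rose and 1 fell, with Nos3, the endothelial nitric oxide synthase, at 0.59 ± 0.11, the adhesion protein Esam at 0.43 ± 0.07, and Ly6a at -0.63 ± 0.16. Of 12 endothelial transcription factors (median 0.13) 4 rose (Klf2, Klf4, Tal1 and Meis2) and Nr2f2 fell by 0.21 on the log2 scale (SE 0.05). Among 9 ligands of the member receptors (median -0.06) Bmp10 (0.38 ± 0.10) and adrenomedullin, Adm (0.49 ± 0.16), rose, and Vegfa stood at -0.07 ± 0.06 (adjusted p = 0.369). Of 7 partners of the receptors (median 0.11) Nrp2 rose (0.38 ± 0.11). The 3 genes tested under lymphatic endothelium (Prox1, Ccl21a and Pdpn, median 0.08) did not pass. From which liver cells their RNA came cannot be told in whole tissue.

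Markers of other liver cells moved in the same comparison, in which 17.8% of all genes passed upward and 20% downward. Their part in the rise of the endothelial genes was not tested. The 13 markers of Kupffer cells, the resident macrophages, had a median of -0.45, with 10 that fell (Cd68 at -0.62 ± 0.14, Clec4f at -0.39 ± 0.09) and 1, Cd163, that rose. Of 6 markers of infiltrating macrophages 4 fell (median -0.61). The summed level of the 13 Kupffer markers ran from 383 to 1064 CPM in B6 female controls and from 320 to 488 CPM on low isoleucine, and from 260 to 472 and 111 to 264 CPM in B6 males. It ran from 233 to 444 and 244 to 387 CPM in DBA females, and from 157 to 337 and 207 to 287 CPM in DBA males. By class 7 Kupffer markers fell in B6 females, where 11.3% of all genes fell, and 5 in B6 males, where 3.26% fell. In DBA females (median -0.23) and DBA males (median 0.05) 0 of the 13 passed. There 5.11% and 7.48% of all genes passed upward and 6.66% and 10.2% downward. Of 12 stellate cell markers the 3 collagen genes Col1a1, Col1a2 and Col3a1 fell (list median 0.04), and of 8 hepatocyte markers 4 rose (median 0.11). Of 5 cholangiocyte markers Sox9 rose and Spp1 fell (median -0.09), and 0 of 7 lymphocyte markers passed (median -0.19). Of all these marker genes 0 were at 0 in every library. Stab1, Mrc1 and Fcgr2b are also made by macrophages.

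By class, 8 members rose with low isoleucine in B6 females (9.53% of all genes passed upward and 11.3% downward), 4 in B6 males (1.74% and 3.26%), 2 in DBA females (5.11% and 6.66%) and 9 in DBA males (7.48% and 10.2%), and 0 fell in each. The count in DBA females is near the share of all genes. Flt1 and Ptprb passed in 3 classes each, Ehd3 and Kdr in 2. Lyve1, Tie1, Dll4 and Egfl7 passed in B6 females, and Nrp1, Rspo3, Mrc1, Wnt9b and Adgrl4 in DBA males. These class counts were 3, 0, 0 and 2 when the 2 libraries of each title number in a group were summed, which leaves 3 values per group. The direct test of a strain difference in the low-isoleucine effect called 0 members, and 0 by DESeq2, where edgeR called 0.716% of all genes higher and 0.675% lower. An unadjusted p under 0.05 was found for 1 member, and for 14.6% of all genes. The test of a sex difference called 2, both with a higher value in males: Clec4g (0.54 ± 0.16, adjusted p = 0.0302) and Ehd3 (0.47 ± 0.14, adjusted p = 0.0255), where 3.03% of all genes passed upward and 3.65% downward. That count is near the share of all genes. Clec4g had class values of -0.20 in B6 females, -0.27 in DBA females, 0.24 in B6 males and 0.37 in DBA males. Neither call was kept in the summed values (adjusted p = 0.238 for Clec4g and 0.228 for Ehd3).

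High isoleucine was not told apart from control for any member. As the mean of the 4 classes 0 members passed in either direction, as did 0% of all genes; 2 members, both lower, had an unadjusted p under 0.05, as did 4.57% of all genes, and DESeq2 called 0 members. The fold changes had a median of -0.08 and 27 of 32 were negative. The 95% intervals of the 32 fold changes reached from -0.77 to 0.28, with 3 lower bounds under -0.5 and 0 upper bounds above 0.5. Within classes 0 members passed by edgeR in either direction. Of all genes 0% passed upward and 0% downward in B6 females, 1.89% and 2.61% in B6 males, 0.00669% and 0% in DBA females, and 0.0134% and 0% in DBA males. Unadjusted p-values under 0.05 were found for 0 members in B6 females (5.66% of all genes in either direction) and for 3 in B6 males, all higher (21.6% of all genes). They were found for 2 members in DBA females, both lower (2.39% of all genes), and for 14 in DBA males, all lower (8.43% of all genes). The strains differed in this effect for 1 member: Flt4 had a more negative effect in DBA than in B6 (-0.63 ± 0.16, adjusted p = 0.0445), where 0.207% of all genes passed downward. The medians of Flt4 went from 18.0 CPM on control to 13.6 CPM on high isoleucine in DBA females and from 11.3 to 7.46 CPM in DBA males, and from 16.0 to 18.5 CPM and 13.3 to 16.1 CPM in B6 females and males. The Flt4 call was lost under 5 of 8 alternatives: without library 4 of the B6 female controls (adjusted p = 0.0646), with the 2 libraries of a title number summed (adjusted p = 0.397), with the title-number block (adjusted p = 0.257), with library totals alone and without the filter on low counts.

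Between the 2 ends of the isoleucine range, 24 members were lower on high than on low isoleucine and 0 were higher, where 20.7% of all genes were lower and 22.9% higher. This comparison shares the low-isoleucine libraries with the one above. Adgrf5 was lower by 0.80 on the log2 scale, a fold of 0.574 (adjusted p = 6.79e-12), Flt1 had a fold of 0.693 (adjusted p = 1.1e-08) and Ptprb one of 0.673 (adjusted p = 4.89e-08). The members that passed here without having passed between low and control were Lyve1, Cd34, Dll4, Ramp2, Wnt2, Dnase1l3, Tie1 and Emcn. Within B6, 5 members were lower in females (8.78% of all genes lower) and 6 in males (11.6%); within DBA, 8 were lower in females (6.11%) and 25 in males (6.27%). Plvap was higher in B6 males (0.55 ± 0.19, adjusted p = 0.03), where 14.2% of all genes were higher. In DBA males all 32 fold changes were negative, and the summed level of the 32 genes ran from 632 to 744 CPM on low isoleucine and from 420 to 512 CPM on high, without overlap. Control libraries of DBA males ran from 448 to 622 CPM, below the low-isoleucine libraries and overlapping those on high isoleucine.

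**Figure D4:**
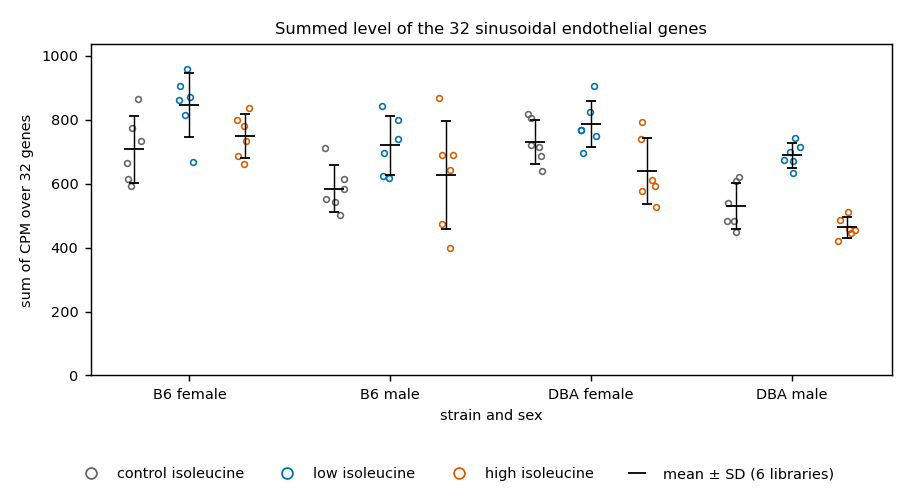
Sum of the CPM of the 32 genes (vertical axis, from 0) in each library of the 4 strain-sex classes (horizontal axis), coloured by isoleucine content, with the mean ± SD of 6 libraries. Low isoleucine had the highest group mean in each class, and in DBA males its libraries (632 to 744 CPM) lie above all others of the class.

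On the control diet males had lower levels than females for 17 of the 32 genes and a higher level for 1, where 12.9% of all genes were lower and 13.3% higher in males. The median over the members was -0.39 against 0.00 over all genes; with scaling by library totals alone the median of all genes moved to -0.11. The lowest adjusted p was that of Ehd3 (-0.55 ± 0.10, adjusted p = 8.33e-06), followed by Clec4g (-0.57 ± 0.11, adjusted p = 9.61e-05) and Stab2 (-0.60 ± 0.12, adjusted p = 0.000158). The same control libraries enter the sex difference of the low-isoleucine effect with the opposite sign. The calls for Ehd3 and Clec4g there and here are therefore not independent. The nuclease Dnase1l3 had the most negative value (-0.62 ± 0.14). Clec4g medians were 48.7 CPM in B6 females and 36.1 CPM in B6 males, and 52.8 and 33.2 CPM in DBA females and males. In DBA the female range of Clec4g (45.2 to 60.1 CPM) lay above the male range (25.0 to 38.8 CPM), and in B6 the ranges overlapped. Nrp1 was the member higher in males (0.56 ± 0.15, adjusted p = 0.00326), with medians of 28.9 and 39.2 CPM in B6 females and males and 36.6 and 44.2 CPM in DBA. In B6 alone 6 members were lower in males (8.49% of all genes) and in DBA 16 (11.3%). Among markers of other cells, 12 of 13 Kupffer, 8 of 12 stellate, 6 of 7 lymphocyte, 1 of 6 infiltrating macrophage, 1 of 5 cholangiocyte and 2 of 8 hepatocyte markers were lower in males and 0 higher. Their part in the result was not tested.

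**Figure D5:**
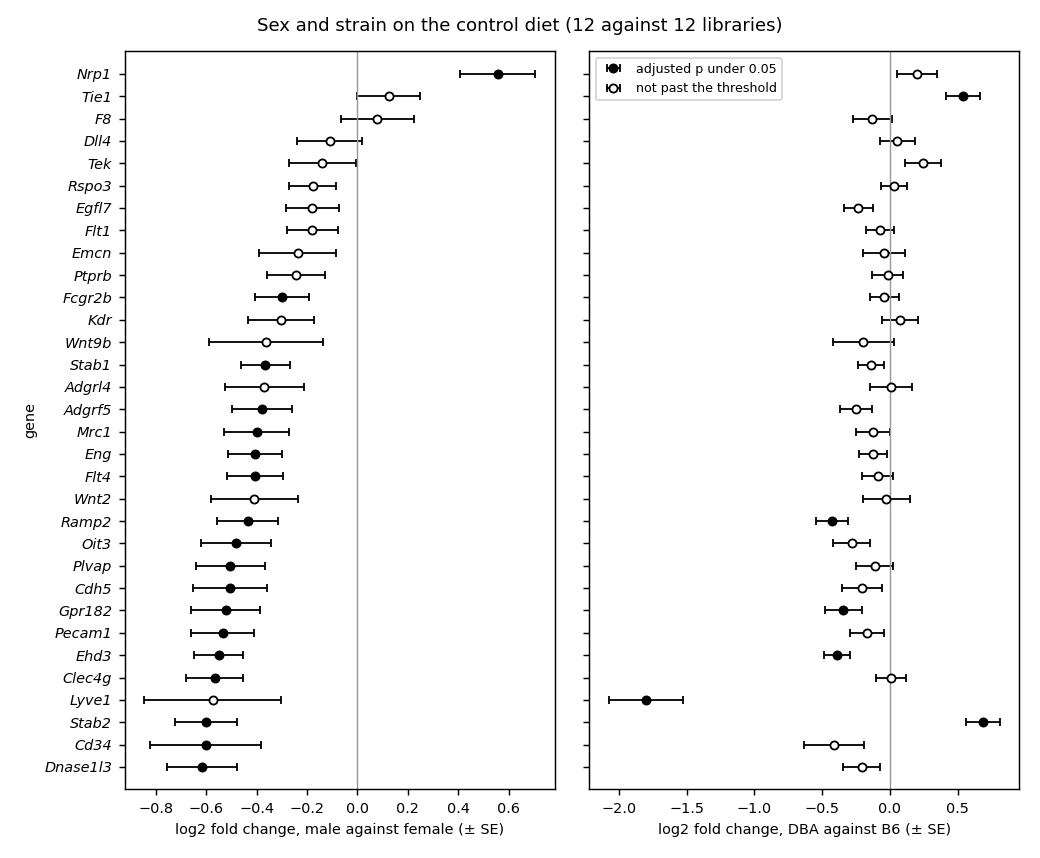
Log2 fold change ± SE of each of the 32 genes on the control diet between males and females (left) and between DBA and B6 (right), 12 against 12 libraries, filled where the adjusted p is under 0.05. Most genes lie left of 0 in the left panel, whereas in the right panel most lie near 0 and Lyve1 (-1.80) stands apart.

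Few members differed between the strains: on the control diet 2 were higher and 4 lower in DBA than in B6, where 22.9% of all genes were higher and 22.5% lower. Lyve1 had the largest difference, at -1.80 ± 0.27 (adjusted p = 1.21e-07). Its control libraries ran from 3.95 to 11.6 CPM (median 8.22) in B6 females and from 4.15 to 12.1 CPM (median 7.39) in B6 males, against 1.52 to 4.5 CPM (median 2.79) in DBA females and 0.772 to 2.73 CPM (median 1.45) in DBA males. Lyve1 ranges overlapped between strains in females and not in males. Stab2, which binds the same ligand hyaluronan, went the other way (0.68 ± 0.12, adjusted p = 5.14e-06). Stab2 ran from 36.4 to 55.5 CPM (median 51.8) in B6 female controls and from 72.3 to 113 CPM (median 93.0) in DBA female controls, without overlap. In males the Stab2 ranges were 24.8 to 47.5 CPM (median 39.5) and 31.9 to 80.6 CPM (median 49.8) and overlapped. Tie1 was higher in DBA as well (0.54 ± 0.13, adjusted p = 0.00028), from a median of 7.51 to 9.92 CPM in females and from 7.86 to 12.4 CPM in males. Ramp2 (-0.43 ± 0.12, adjusted p = 0.00271), Ehd3 (-0.39 ± 0.10, adjusted p = 0.000544) and Gpr182 (-0.34 ± 0.14, adjusted p = 0.0339) were lower. Ramp2 medians were 8.79 and 6.31 CPM in B6 and DBA females and 6.47 and 4.95 CPM in males, and Gpr182 medians were 20.3 and 15.9 CPM in females and 13.8 and 11.5 CPM in males. Kupffer (10 of 13), infiltrating macrophage (5 of 6), stellate (7 of 12) and lymphocyte (5 of 7) markers were lower in DBA and 0 of them higher, and their part in these differences was not tested.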

How the data were processed

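Livers were profiled by RNA sequencing in 72 libraries. Alignment was to GRCm38.p5, and the values the authors deposited are, per the labels' protocols, expected counts for Ensembl genes. Such estimates need not be whole, and 9.56% of nonzero values were not. Which aligner and counter were used is not given in the sources used here, and the labels name both a polyA and a total RNA kit. Per the submitters' processing notes, edgeR, limma and R 3.4.3 were used. Of 50308 lines 1 was incomplete and left out, and the authors' own fold change tables were not used. Groups came from the strain, sex and diet fields.

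Counts were rounded, filtered with filterByExpr by group and scaled by TMM (factors 0.841 to 1.14), and 14954 genes were tested with edgeR 4.0.16 (quasi-likelihood, robust) in R 4.3.3, in a single model with 1 mean for each of the 12 groups. Adjustment was by Benjamini-Hochberg over the 14954 genes, with a threshold of 0.05. The mean effect averages the 4 strain-sex classes, and differences between strains or sexes were tested as interaction terms. Symbols, positions and exon lengths came from a GRCm38 annotation (52 identifiers had no symbol). The code was tested on simulated data. Alternatives were RLE factors, library totals alone, no filter, DESeq2 1.42.0, limma 3.58.1 with a block on title number or with quality weights, counts summed over title numbers, each class alone, and leaving out library 4 of the B6 female controls.

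The 32 members and the other gene lists were chosen with earlier results of these data known. For the mean effect of low isoleucine all 32 members are given with statistics. In other comparisons up to 8 are, by lowest adjusted p. Levels per library are given for up to 8 members by lowest adjusted p in the low-isoleucine and strain comparisons. They are also given for Kdr, Stab2, Clec4g, Wnt2, Wnt9b and Rspo3. From other lists up to 4 genes by lowest adjusted p are named. Further members and list genes named beside a count were chosen after their values were seen. Pgf, Sele, Cftr and Ncr1 had too few counts, Tf matched no symbol, and these list genes were not analysed here. Library totals ran from 12959000 to 51125400 counts; the standard errors hold counting noise and the spread between libraries together.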

Additional observations from a re-analysis of the deposited data

Results flagged for a closer look

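Single libraries stood apart from the other 5 of their group in 12 of 216 comparisons of a member's level within a group, by Dixon's criterion (a gap to the nearest library that is large against the range of the 6); chance alone gives about 1 in 20. High values were Adgrf5 at 34.2 CPM in B6 female control library 2 (next 24.7), Flt1 at 9.85 CPM in B6 female high-isoleucine library 4 (next 8.09) and Adgrl4 at 9.10 CPM in library 2 of the same group (next 6.33). Stab1 was high at 45.6 CPM in DBA female control library 6 and low at 33.8 CPM in B6 male low-isoleucine library 4. Oit3 reached 26.1 CPM in B6 male low-isoleucine library 5, and Stab2 was low at 36.4 CPM in B6 female control library 4. Gpr182 was high 3 times, at 20.8 CPM in B6 male control library 4, at 20.9 CPM in DBA female control library 3 and at 20.3 CPM in DBA female low-isoleucine library 6. That last library also had the high Wnt9b value of 2.16 CPM (next 1.04). Wnt2 was high at 3.93 CPM in B6 female low-isoleucine library 3 (next 2.91).

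Diet effects differed between groups by an interaction test for 3 members. For the sex difference of the low-isoleucine effect 3.03% of all genes passed upward and 3.65% downward. The count of 2 of the 32 members there is near the share of all genes. For the strain difference of the high-isoleucine effect 0.207% of all genes passed downward. The low-isoleucine effect on Ehd3 was higher in males than in females by 0.47 on the log2 scale. That on Clec4g was higher by 0.54, with negative values in both female classes (-0.20 and -0.27) and positive ones in both male classes (0.24 and 0.37), of which 0 passed by class. Both calls were lost with the title-number block (adjusted p = 0.0916 for Ehd3 and 0.125 for Clec4g) and with title numbers summed. The high-isoleucine effect on Flt4 differed between strains by -0.63 (DBA minus B6).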

How the results depend on the processing

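The count of members past the threshold with low isoleucine as the mean of the classes stayed between 12 and 18 under the 8 alternatives, and 11 of the 19 members past it in any fit were past it in every fit (Tek, Oit3, Rspo3, Ptprb, Pecam1, Ehd3, Flt1, Adgrl4, Stab1, Adgrf5 and Kdr). Counts within classes depended more on the processing. In B6 females (8) the count was 5 with library totals alone, 5 without the filter, 5 with the title-number replicate block and 3 with title numbers summed. In B6 males (4) it was 2, 2, 2 and 0 in that order, and 2 with the class fitted alone. In DBA females (2) it was 0, 1, 0 and 0. In DBA males (9) it was 4 with the replicate block and 2 when summed. The sex difference of the low-isoleucine effect (2) gave 0 with the block and 0 when summed, and males against females (18) gave 11 when summed. Without library 4 of the B6 female controls the counts were 18 for the mean and 6 in B6 females. The cause of these shifts was not tested, except that summing leaves 3 values per group. Among members that passed a comparison in at least 1 fit, 775 values under an alternative kept direction and side of the threshold, 114 lost the call, 28 gained it and 0 changed sign; other members did change sign, as Nrp1, Plvap and Clec4g did with low isoleucine. Library totals alone moved the split of all genes in the mean low-isoleucine effect from 2662 higher and 2985 lower to 1842 and 3607.

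Pairs of libraries share a title number within a group and pair no libraries across diets; what the number stands for is not in the labels. Residuals of such pairs correlated at a median of -0.03 over all genes (36 pairs), against -0.25 for other pairs of a group (144 pairs), and the correlation used in the block was 0.244. Residuals were taken from the mean of the 6 libraries of a group, which by itself makes their correlations negative. On that scale libraries with the same number were more alike than other pairs, whereas the main fit treats all libraries as independent. Alternatives for the strain difference of the high-isoleucine effect were chosen after seeing the data; 3 of the 8 kept the call for Flt4. The lowest counts in a library were 6 for Wnt9b, 8 for Lyve1 and 10 for Cd34.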

Other observations

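In some libraries many members held the highest or lowest value of their group at once. The share of all genes that did so was not counted. A wide spread was not confined to the members: the 13 Kupffer markers summed to between 172 and 836 CPM in B6 males on high isoleucine. In B6 female control library 2, 20 of the 32 members had their highest value of the group, and its summed level was 865 CPM against a group median of 699 CPM. In B6 male high-isoleucine library 2, 19 members had the lowest value of the group, at a summed 398 CPM against a median of 667 CPM. Library 3 of the same group had the highest value for 22 members (868 CPM summed), and DBA female low-isoleucine library 6 for 20 (907 CPM). The lowest value was held by DBA female high-isoleucine library 1 for 20 members (529 CPM) and by DBA female low-isoleucine library 3 for 19 (697 CPM). B6 male control library 4 had the highest value for 19 (713 CPM). The residuals of the 32 members over their group means correlated at a median of 0.08 in pairs of libraries with the same title number and -0.30 in other pairs of a group. Taking off the group mean by itself makes such correlations negative. The spread of the summed level between libraries was widest in B6 males on high isoleucine (628 ± 169 CPM, mean ± SD, n = 6) and narrowest in DBA males on high isoleucine (463 ± 32 CPM).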
